A study of Mus musculus with 2 samples.

Results

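The genes of cholesterol and fatty acid synthesis were examined in M210B4, an established stromal line from mouse bone marrow, after exposure to an antibody that activates CD84 or to an IgG1 isotype antibody. The set holds 36 named genes, listed by symbol for their place in these pathways, with earlier results of these data known. Of these, 33 were represented by a probe set with a single gene symbol, among 22180 genes represented in this way. The brightest probe set stood for a gene where several existed. The comparison rests on 2 Affymetrix Mouse Gene 2.0 ST arrays, 1 per treatment. Both cultures stayed 24 h in RPMI medium with 2% serum, and 200000 cells were taken from each. M210B4 is a single line, so cultures of it cannot stand for the variety of marrow stroma. With 1 array per group no difference has a replicate check, an error or a p-value, and each one describes these 2 arrays.

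Cells make cholesterol from acetyl-CoA in an early series of steps that ends in isoprenoid units and a later series that builds squalene, closes it into lanosterol and trims lanosterol to cholesterol. Most genes of the pathway are known targets of the SREBP transcription factors. SCAP carries these proteins out of the endoplasmic reticulum for cleavage when sterols are scarce, and INSIG proteins hold them back when sterols are plentiful. Srebf1 encodes the form best known for fatty acid genes, and Srebf2 the form best known for cholesterol genes. SREBP proteins act on promoters together with NF-Y, which binds the CCAAT box, and with Sp1, which binds the GC box.

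The regions before the annotated starts are shown first for 6 of the genes. Mvd, Tm7sf2, Hsd17b7 and Elovl6 were at least 1.5-fold higher after anti-CD84 and have 1 annotated start. Hmgcs1 holds the only match to the 1 spelling of the sterol regulatory element counted here. Mvk had a lower value after anti-CD84. These 6 were picked after their values and motif matches had been seen. Each is the 250 bases before the start in RefSeq's GRCm38.p6, 5′ to 3′ on the strand of the gene. Capitals mark CCAAT boxes on either strand and, in Hmgcs1, the sterol regulatory element as well.
Hmgcs1, chr13:119690101-119690350, plus strand: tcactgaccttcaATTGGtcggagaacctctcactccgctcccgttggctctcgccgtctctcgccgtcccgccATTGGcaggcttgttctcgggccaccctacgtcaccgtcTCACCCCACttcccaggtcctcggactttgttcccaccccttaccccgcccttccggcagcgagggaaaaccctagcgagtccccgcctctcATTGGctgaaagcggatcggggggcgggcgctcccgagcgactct
Mvk, chr5:114444019-114444268, plus strand: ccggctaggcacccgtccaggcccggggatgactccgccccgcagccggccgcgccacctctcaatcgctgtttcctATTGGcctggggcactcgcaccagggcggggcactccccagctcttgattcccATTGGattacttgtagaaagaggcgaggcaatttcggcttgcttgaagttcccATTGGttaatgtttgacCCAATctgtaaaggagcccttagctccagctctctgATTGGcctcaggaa
Mvd, chr8:122443423-122443672, minus strand: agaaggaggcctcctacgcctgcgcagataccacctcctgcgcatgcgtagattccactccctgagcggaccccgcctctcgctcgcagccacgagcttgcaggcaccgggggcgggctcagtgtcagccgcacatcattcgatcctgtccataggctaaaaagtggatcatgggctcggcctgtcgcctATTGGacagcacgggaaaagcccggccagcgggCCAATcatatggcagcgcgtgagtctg
Tm7sf2, chr19:6067851-6068100, minus strand: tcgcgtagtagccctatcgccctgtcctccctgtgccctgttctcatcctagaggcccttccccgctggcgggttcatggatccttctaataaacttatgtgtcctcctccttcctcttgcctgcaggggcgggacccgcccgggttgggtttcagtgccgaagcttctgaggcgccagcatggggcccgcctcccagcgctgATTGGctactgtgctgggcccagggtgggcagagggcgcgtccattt
Hsd17b7, chr1:169969206-169969455, minus strand: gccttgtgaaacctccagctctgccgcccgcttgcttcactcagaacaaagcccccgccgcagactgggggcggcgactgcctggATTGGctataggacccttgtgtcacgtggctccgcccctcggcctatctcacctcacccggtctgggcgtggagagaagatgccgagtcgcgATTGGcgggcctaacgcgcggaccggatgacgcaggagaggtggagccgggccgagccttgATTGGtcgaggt
Elovl6, chr3:129532136-129532385, plus strand: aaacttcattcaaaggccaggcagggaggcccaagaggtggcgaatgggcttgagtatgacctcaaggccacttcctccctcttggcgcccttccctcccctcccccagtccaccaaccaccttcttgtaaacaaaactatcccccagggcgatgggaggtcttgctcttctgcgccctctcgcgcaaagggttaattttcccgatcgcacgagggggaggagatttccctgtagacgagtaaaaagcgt

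Mvk holds 5 CCAAT boxes, Hmgcs1 and Hsd17b7 hold 3 each, Mvd 2 and Tm7sf2 1, and Elovl6 holds 0. RefSeq windows were found for 29 of the 36 genes, and all were searched on both strands for the CCAAT box (CCAAT), the GC box (GGGCGG), the E-box (CACGTG) and the sterol regulatory element (TCACNCCAC). A gene with several annotated starts was counted when any of its windows held the motif. Among the 15 genes of the cholesterol steps with a window, 14 held a CCAAT box, or 93.3%, and the exception was Acat2. Among 9 fatty acid genes with a window, 5 held one, or 55.6%. The share was 39.7% of 10329 genes detected on these arrays with a window and 37.5% of all 27025 genes in the table. GC boxes were found in 14 of the 15 cholesterol genes and in 4 of the 9 fatty acid genes, against 61.4% of the detected genes. The E-box was found in 6 of the 29 genes, against 9.75% of the detected genes, and the sterol regulatory element in 1, against 1.25%. Only this 1 spelling of the sterol regulatory element was counted, so these counts do not cover other spellings or positions further away. Genes without a window, Fdft1, Sqle and Fdps among them, were not searched.

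The CCAAT box did not separate the genes by their difference between the arrays. It was found in 4 of the 5 genes with a window that were at least 1.5-fold higher and in 17 of the 21 other detected genes with a window. Dhcr7, which had the largest difference, has 3 annotated starts, and the CCAAT box lay before 1 of them. In Fasn 1 pair of CCAAT matches on opposite strands overlapped, and no match overlapped one of another motif. A match describes the letters of the window, and which starts these cells used was not examined.

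**Figure D1:**
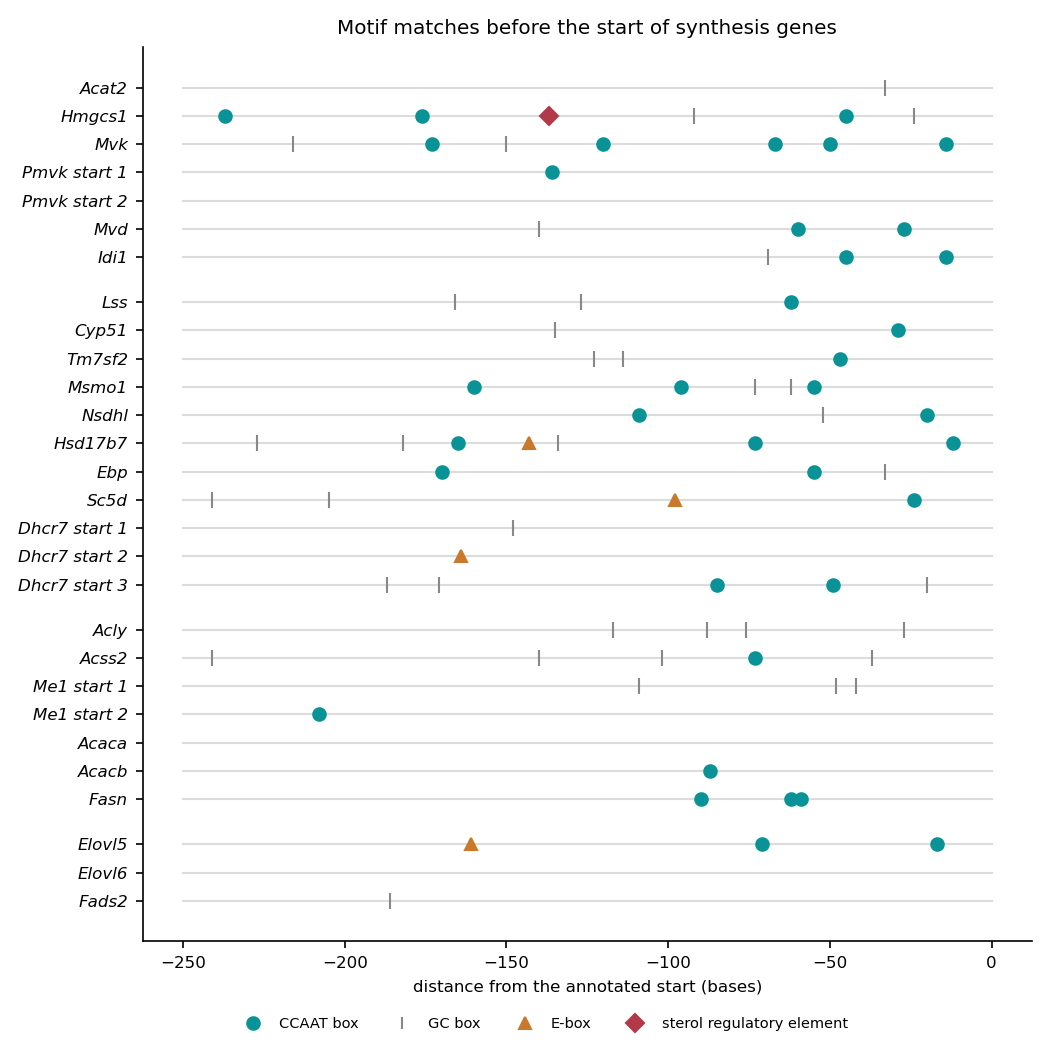
Positions of motif matches in the 250 bases before each annotated start of the cholesterol genes (upper blocks) and fatty acid genes (lower blocks); the horizontal axis is the distance from the start in bases, each line is 1 start, and each symbol is the first base of a match on either strand. CCAAT boxes appear in 14 of 15 cholesterol genes and 5 of 9 fatty acid genes, and the sterol regulatory element in Hmgcs1.

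On the arrays, 32 of the 33 genes lay above a detection level of 4.84 on the log2 scale, each on both arrays. That level is the 95th percentile of 1405 olfactory and vomeronasal receptor probe sets. Acacb, the acetyl-CoA carboxylase of the mitochondrial surface, was below it on both arrays, at 4.11 after IgG1 and at a mean of 4.05 over the 2 arrays. Idi1 and Scd2 were represented only by probe sets that list a second gene, and the symbol Acat2 was absent from the annotation. Array values of these genes are not described here. Idi1 and Scd2 enter only the alternative that allows probe sets with several symbols. Of the 32 detected genes 6 were at least 1.5-fold higher after anti-CD84, 0 were 1.5-fold lower and 26 lay within 1.5-fold. Among all 13290 detected genes the shares past the same folds were 10.7% higher and 6.40% lower. None of the 32 reached 2-fold in either direction, which 1.98% of detected genes did upward and 1.43% downward. A difference is the log2 value after anti-CD84 minus that after IgG1. It was above 0 in 26 of the 32 genes, compared with 59.0% of all detected genes. The median difference of the 32 was 0.26 and their range ran from -0.30 to 0.94, while the median of all detected genes was 0.09.

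**Figure D2:**
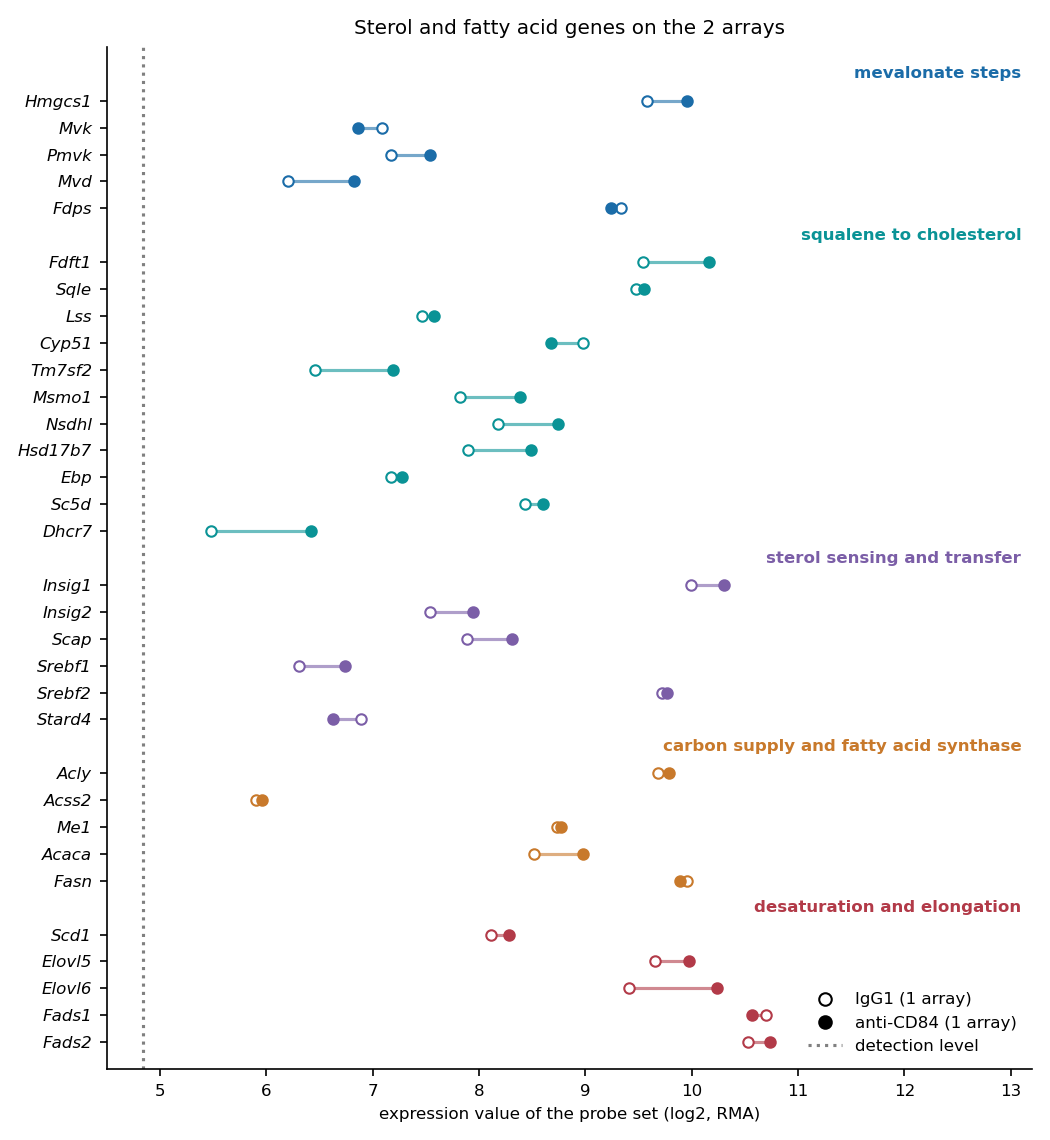
Expression value (log2) of each of the 32 detected genes after IgG1 (open circle, 1 array) and after anti-CD84 (filled circle, 1 array), in the order of the pathway steps; the dotted line is the detection level of 4.84. The filled circle lies to the right for 26 genes, with the longest bars for Dhcr7, Elovl6 and Tm7sf2.

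The mevalonate steps were mixed, with values further apart for Mvd than for the other 4 genes measured. Hmgcs1, which makes HMG-CoA for the pathway, was at 9.95 after anti-CD84 and 9.58 after IgG1, a 1.30-fold higher value. Mvk, the kinase that phosphorylates mevalonate, was at 6.86 against 7.09 and so 1.17-fold lower. Pmvk, which adds the next phosphate, was at 7.54 against 7.17, or 1.29-fold higher. These consecutive kinases therefore lay on opposite sides of 0. Mvd, the decarboxylase that yields isopentenyl diphosphate, was at 6.82 against 6.20, a 1.54-fold higher value just past the 1.5-fold limit. Fdps, which joins isoprenoid units into farnesyl diphosphate, was at 9.24 against 9.34. Of the 5 genes 3 were higher and 2 lower in value, near the 59.0% of all detected genes above 0. The median difference was 0.37, and 1 was past 1.5-fold, beside 10.7% of all detected genes at least 1.5-fold higher. With centring, a loess curve removed or quantile normalization 0 of the 5 were past it. The range of these 5 genes, from -0.23 to 0.62, lay within that of the later steps, from -0.30 to 0.94.

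The steps from squalene to cholesterol held 4 of the 6 genes that were at least 1.5-fold higher. These were 4 of 11 detected, beside 10.7% of all detected genes. With centring, a loess curve removed or quantile normalization the count was 2 of 11, beside 7.71%, 8.43% and 8.21% of all detected genes. Of 11 genes 10 had a higher value after anti-CD84, beside 59.0% of all detected genes, and the median difference was 0.56. The count above 0 was 9 with centring or quantile normalization and 7 with a loess curve removed, where Sqle, Lss and Ebp turned to -0.03, -0.01 and -0.02. Fdft1, the squalene synthase that commits farnesyl diphosphate to sterols, was at 10.16 after anti-CD84 against 9.55, a 1.53-fold higher value. The next enzymes differed little. Sqle, the squalene epoxidase, was at 9.55 against 9.47, and Lss, the cyclase that forms lanosterol, at 7.58 against 7.46. Cyp51, which removes a methyl group from lanosterol, was at 8.68 against 8.98. It was the only gene of these 11 with a lower value, and at -0.30 the lowest difference of all 32.

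The 7 enzymes that follow Cyp51 are described gene by gene. They are not 1 of the groups of steps, and this cut of the pathway leaves out Cyp51 itself, which was lower. No count is therefore drawn from them. Tm7sf2, a sterol reductase, was at 7.19 after anti-CD84 and 6.45 after IgG1, which is 1.66-fold higher. Msmo1, Nsdhl and Hsd17b7 belong to the complex that demethylates the sterol ring, and their differences of 0.56, 0.57 and 0.60 were nearly equal. Msmo1 was at 8.38 against 7.82 and Nsdhl at 8.74 against 8.17, each 1.48-fold higher and so just inside the 1.5-fold limit. Hsd17b7 was at 8.49 against 7.89, 1.51-fold higher and just outside it as deposited, but inside it under each of the other scalings. Ebp, the sterol isomerase, was at 7.27 against 7.17, and Sc5d, the sterol desaturase, at 8.60 against 8.43. Both lay close to the median of all detected genes, and the sign for Ebp changed with the scaling. Dhcr7, the reductase that ends 1 branch of the pathway in cholesterol, was at 6.42 against 5.48. That 1.92-fold higher value was the largest difference of the set, and 2.59% of all detected genes had a difference at least as high. Among detected genes with a mean level under 7 that share was 3.99%.

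**Figure D3:**
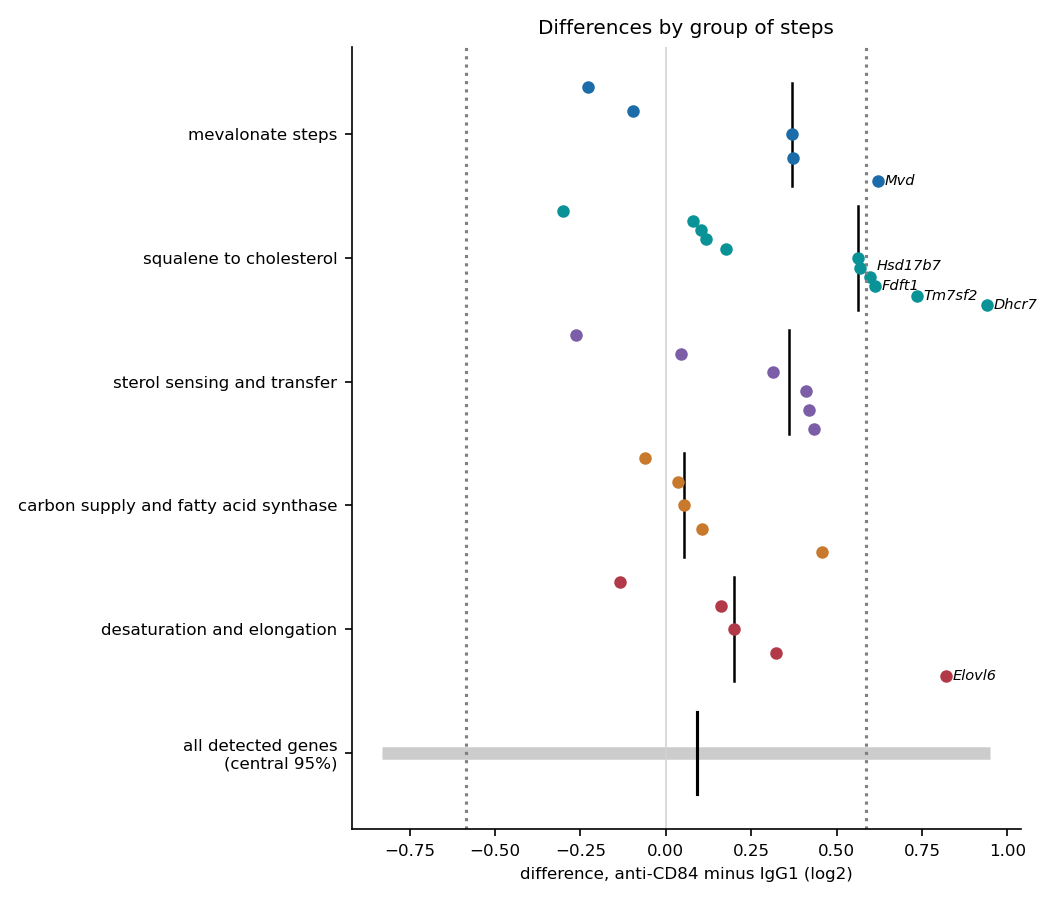
Difference between the arrays (anti-CD84 minus IgG1, log2) for each detected gene by group of steps; black bars are group medians, the grey bar spans the central 95% of all 13290 detected genes (-0.83 to 0.95) and dotted lines mark 1.5-fold. Group medians run from 0.05 for carbon supply and fatty acid synthase to 0.56 for squalene to cholesterol, and all 32 genes lie inside the grey bar's span.

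Genes that sense and move sterols had modest differences, with 0 of 6 past 1.5-fold and a median of 0.36. Among all detected genes 10.7% were at least 1.5-fold higher and 6.40% lower. Of the 6 genes 5 were above 0 as deposited, beside 59.0% of all detected genes. The count was 4 with centring, a loess curve removed or quantile normalization. Scap, the sterol-sensing escort of SREBP proteins, was at 8.31 after anti-CD84 against 7.89, a difference of 0.42. A further, dimmer probe set of Scap gave 5.63 against 5.51, a difference of 0.13 in the same direction. Insig1 and Insig2, which retain SCAP in the endoplasmic reticulum, were at 10.30 against 9.99 and at 7.95 against 7.54. The retention proteins and the escort thus had higher values after anti-CD84 alike. Srebf1 was at 6.74 against 6.31, a 1.35-fold higher value, whereas Srebf2 was at 9.77 against 9.72. Stard4, a soluble carrier of cholesterol, went the other way at 6.63 against 6.89.

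The early fatty acid genes were close to equal on the arrays apart from Acaca. This gene, the cytosolic acetyl-CoA carboxylase that makes malonyl-CoA, was at 8.97 after anti-CD84 and 8.52 after IgG1, or 1.37-fold higher. Fasn, the synthase that builds palmitate from malonyl-CoA, was at 9.89 against 9.95. Acly, which supplies cytosolic acetyl-CoA from citrate, was at 9.79 against 9.68. Acss2, which supplies it from acetate, was at 5.96 against 5.90, and Me1, a source of NADPH, was at 8.77 against 8.73. None of these 5 genes was past 1.5-fold, and their median difference was 0.05. Among all detected genes 10.7% were at least 1.5-fold higher and 6.40% lower.

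Among the 5 measured enzymes that lengthen and desaturate fatty acids, Elovl6 stood alone past 1.5-fold, beside 10.7% of all detected genes at least 1.5-fold higher. Elovl6, which extends palmitate to stearate, was at 10.23 after anti-CD84 and 9.41 after IgG1, a 1.77-fold higher value. Of all detected genes 4.28% had a difference at least as high, and of those with a mean level over 9 the share was 1.22%. Elovl5, which extends polyunsaturated chains, was at 9.98 against 9.65, a difference of 0.32. Scd1, the stearoyl-CoA desaturase, was at 8.28 against 8.12. The desaturases of polyunsaturated chains differed in sign, with Fads1 at 10.57 against 10.70 and Fads2 at 10.73 against 10.53. The median difference of the 5 genes was 0.20, between the 0.37 of the 16 cholesterol genes measured and the 0.05 of the early fatty acid genes.

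Array differences were wider among dim genes, so the 6 genes past 1.5-fold were also set beside genes of like level. Under a mean level of 7, 3 of 7 genes of the set were at least 1.5-fold higher (Dhcr7, Tm7sf2 and Mvd), and 13.4% of detected genes were. From 7 to 9 the count was 1 of 13 (Hsd17b7), beside 9.82%. Over 9 it was 2 of 12 (Fdft1 and Elovl6), beside 4.76%. The standard deviation of the differences of all detected genes was 0.52, 0.37 and 0.30 in these bands. Dhcr7, the gene with the largest difference, was thus measured at a level where genes in general varied most.

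**Figure D4:**
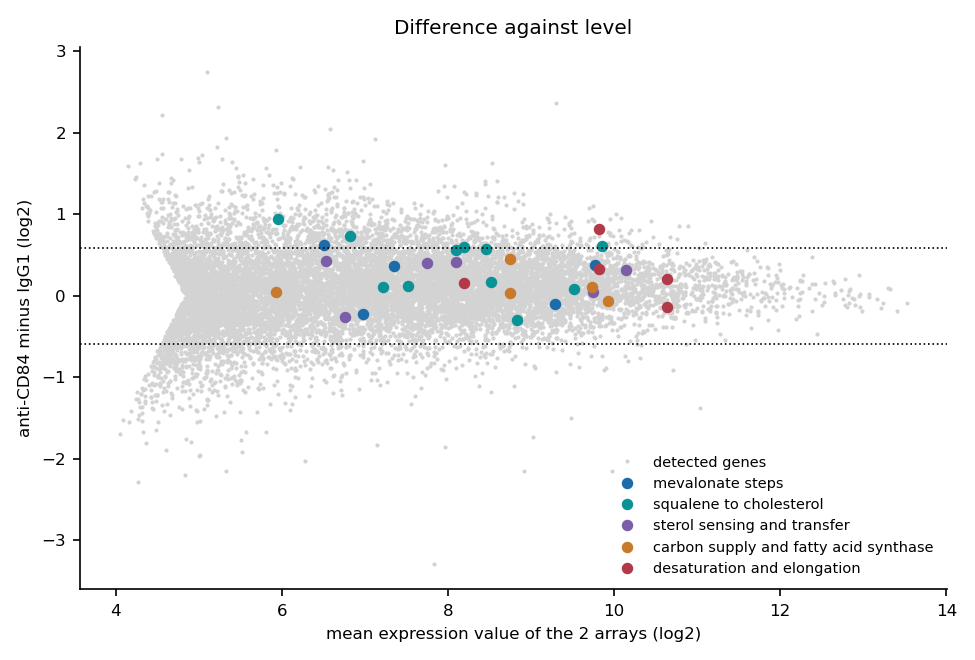
Difference (anti-CD84 minus IgG1, log2) against the mean level of the 2 arrays (log2) for all 13290 detected genes (grey) and the 32 genes of the set (coloured by group); dotted lines mark 1.5-fold. The grey cloud narrows from left to right, and the genes of the set lie mostly in its upper part, with Elovl6 and Fdft1 above the line at a mean level near 10.

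The count of higher genes depended on the scaling. After the median of all detected genes was subtracted, 3 of the 32 were at least 1.5-fold higher (Dhcr7, Elovl6 and Tm7sf2), beside 7.71% of all detected genes, and 22 of 32 lay above 0, beside 50.0% by construction. Mvd, Fdft1 and Hsd17b7 then stood at 0.53, 0.53 and 0.51. Across the deposited scale, centring, a loess curve and quantile normalization, 19 of the 32 genes kept a difference above 0 and 6 kept one below 0 (Mvk, Fdps, Cyp51, Stard4, Fasn and Fads1). The other 7 (Sqle, Lss, Ebp, Srebf2, Acly, Acss2 and Me1) did not keep 1 sign, and the lowest and highest values among them were -0.08 and 0.12.

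**Figure D5:**
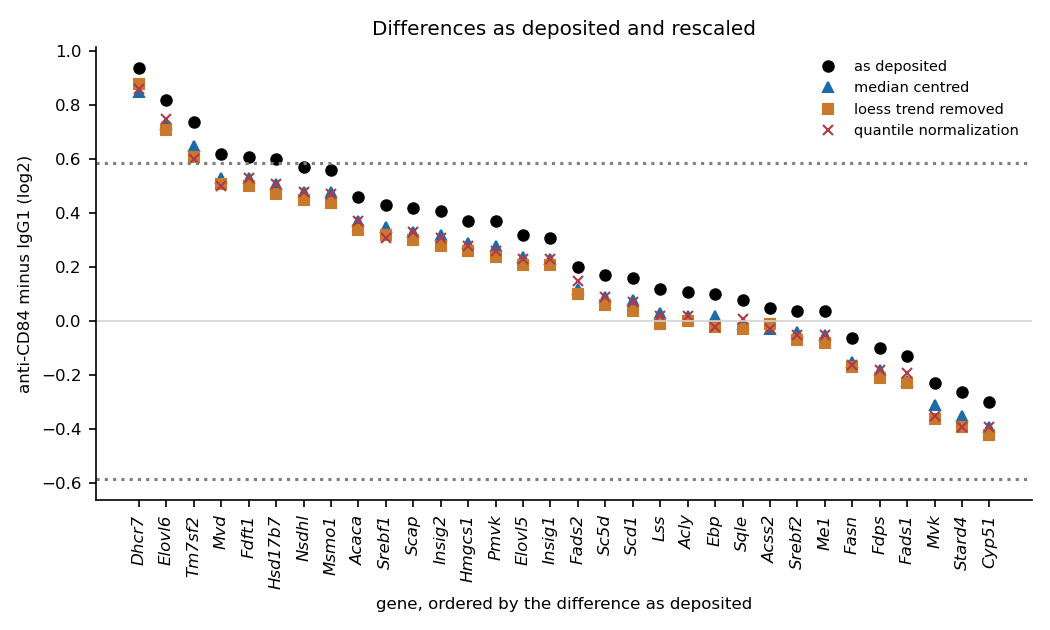
Difference (anti-CD84 minus IgG1, log2) of each of the 32 genes as deposited and under 3 other scalings; dotted lines mark 1.5-fold. Each rescaled value lies below the deposited one, and Dhcr7, Elovl6 and Tm7sf2 stay above the upper line under all 4 scalings.

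Uptake and release of cholesterol were described from other fixed lists. Of 8 detected genes of uptake and lysosomal release 0 were past 1.5-fold, and the median difference was 0.26. Npc1 and Lipa, which export cholesterol from the lysosome and free it from esters there, were at 8.59 against 8.08 and at 9.38 against 8.90. Of 8 detected genes of efflux and its LXR regulators 0 were past 1.5-fold as deposited, and the median was 0.19. Abca1, the pump that loads cholesterol onto apolipoproteins, was at 7.81 against 7.40, and Abcg4, a related transporter, was at 5.30 against 4.76, the latter under the detection level. With the loess curve removed, 1 gene of this list passed 1.5-fold upward.

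Of 9 detected genes of sterol esterification and transfer 3 were at least 1.5-fold higher and 0 lower, beside 10.7% and 6.40% of all detected genes, with a median of 0.27. Stard5, a lipid-binding protein of the family of Stard4, was at 7.28 after anti-CD84 against 6.40, or 1.84-fold higher. Osbpl2 was at 8.96 against 8.19 and Osbpl5 at 7.66 against 7.02, both of the oxysterol-binding protein family. With the difference centred, 2 genes of this list were past 1.5-fold, beside 7.71% of all detected genes. Of a list of genes around SREBP processing, 0 of 7 detected were past 1.5-fold. These were Mbtps1, Mbtps2, Spring1, Rnf139, Syvn1, Erlin1 and Erlin2, and not all of their products act on SREBP itself. Their differences ran from 0.22 to 0.50 as deposited and were above 0 in 7 of 7 under each of the 4 scalings, beside 59.0% of all detected genes as deposited and 50.0% after centring. Spring1, which supports SREBP cleavage, was at 7.27 against 6.77, and the protease Mbtps1 at 9.49 against 9.02. Of 4 further detected genes around sterol synthesis 1 was past 1.5-fold, Ggps1, the synthase of geranylgeranyl diphosphate, at 8.23 against 7.50.

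Markers of cell identity were read on the same arrays. Of 10 marrow stromal markers 7 were detected on both arrays, Thy1 on the IgG1 array alone, and Eng and Nt5e on neither. Their summed linear level was 19694 after anti-CD84 and 16492 after IgG1. Cxcl12, a chemokine of marrow stroma, was at 10.29 against 9.19 and Pdgfra, a growth factor receptor, at 10.21 against 9.29. These were the 2 past 1.5-fold of 8 detected on at least 1 array, at 2.15-fold and 1.89-fold higher. Of all detected genes 10.7% were at least 1.5-fold higher. The median difference of the 8 was 0.25. Of 10 measured adipocyte markers 3 were detected on both arrays (Plin4, Cebpa and Pparg), and the defining Adipoq, at 3.68 and 3.70, was below the detection level on both. Their summed linear level was 666.2 and 686.3. The 5 detected on at least 1 array had a median difference of -0.25, with 0 past 1.5-fold and the lowest values for Fabp4 (-0.57) and Plin1 (-0.50), both under the detection level after anti-CD84. Of 8 measured haematopoietic markers 0 were detected on both arrays, and their summed level was 145.7 and 132.6. Only Csf1r was detected on 1 array, at 4.86 after anti-CD84, just over the detection level, against 4.14 after IgG1. Fewer cells of a type and less RNA per cell cannot be told apart in these bulk samples, and the part of the marker differences in the values of the lipid genes was not tested.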

How the data were processed

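RNA of M210B4 cells was measured on 2 arrays, 1 per treatment. The deposited values are log2 expression summaries per probe set, made with Partek and RMA per the submitters' processing notes, which give no version. The annotation and genome build behind them were not given in the sources used here. That they are on a log2 scale was inferred from their range. Array medians were 4.87 (anti-CD84) and 4.88 (IgG1). The number of arrays limits the precision.

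Of 41345 probe sets 23521 had 1 symbol in GEO's platform annotation, and the brightest per gene was used. A gene was detected when above 4.84 on at least 1 array. With 1 array per group no test was run; genes past 1.5-fold were counted. The members and lists were chosen with earlier results of these data known. The text names every member, genes of the 10 other lists past 1.5-fold (otherwise the 2 largest differences) and Abca1; other genes that rule names are not reported here. Promoter windows came from RefSeq (GRCm38.p6). The motif names were fixed at the start, but the motif letters and the window of 250 bases were settled after the promoter table had been searched with other spellings of the sterol regulatory element and a longer window; protein sequences were not used here. The counting and motif search were tested on simulated data. Python 3.11.15, pandas 2.3.3, numpy 2.4.6, statsmodels 0.14.6 and matplotlib 3.10.9 were used.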

Additional observations from a re-analysis of the deposited data

How the results depend on the processing

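The alternatives were median centring, removal of a loess curve of difference on level (span 0.4), quantile normalization, a stricter detection level of 6.88, no level filter, both arrays above the level, values floored at the level, the mean of all probe sets, and probe sets with several symbols. The count of 6 genes at least 1.5-fold higher became 3 with centring, 3 with loess and 3 with quantile normalization. Mvd, Fdft1 and Hsd17b7 were the genes lost in each. At the stricter level the count was 4, because Mvd and Dhcr7 were left out. Centring subtracts 0.09 from every gene; for loess and quantile normalization the cause was not tested. The count of 0 genes lower was the same under every alternative listed. The median of the mevalonate steps, 0.37, became 0.24 with loess, 0.26 with quantile normalization and 0.14 at the stricter level, which left out Mvd. For squalene to cholesterol the median of 0.56 became 0.44 with loess and 0.37 at the stricter level, which left out Dhcr7. With loess the medians of sterol sensing (0.36), desaturation and elongation (0.20) and all 32 genes (0.26) became 0.24, 0.10 and 0.15. The median of carbon supply and fatty acid synthase, 0.05, turned to -0.03 with centring, -0.01 with loess and -0.03 with quantile normalization. Other group medians moved by less than 0.1. Of the values of single genes 275 kept their direction or stayed within 1.5-fold, and 9 fell inside it. The 9 were those of Mvd, Fdft1 and Hsd17b7 under centring, loess and quantile normalization. The settings of the detection level can drop a gene but left the values of the genes kept unchanged. Many of the 275 therefore could not have moved, and their number does not measure stability. No paired analysis was possible because each group has 1 array, which also prevents leaving a replicate out. Dim genes, Dhcr7 among them, carry the widest array differences.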

Other observations

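Of 8 detected genes that use the isoprenoids of the mevalonate steps 7 were above 0, beside 59.0% of all detected genes, and 2 were at least 1.5-fold higher, beside 10.7%, with a median of 0.35 that ran from 0.24 to 0.26 under the other 3 scalings. Rabggta, a subunit of the transferase that attaches geranylgeranyl groups to Rab proteins, was at 7.17 after anti-CD84 and 6.47 after IgG1. Dhdds, which makes the dolichol chain for glycosylation, was at 8.65 against 8.07, at the 1.5-fold limit. With loess or quantile normalization 0 of the 8 were past 1.5-fold.

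Lists of fatty acid use held genes with differences in both directions. Their counts stand beside shares of all detected genes of 10.7% at least 1.5-fold higher, 6.40% lower and 59.0% above 0. Of 7 detected genes of fatty acid activation and entry the median was 0.04, or -0.05 with the difference centred, and the range ran from -0.37 for Aacs to 1.08 for Slc27a1. Slc27a1, a fatty acid transport protein, was the 1 gene of the 7 past 1.5-fold, at 6.72 against 5.64, 2.12-fold higher. Of 12 further detected elongation and desaturation genes, with differences from -0.46 for Scd4 to 1.06 for Fads6, 1 was past 1.5-fold. This was Fads6, at 5.85 against 4.79, the latter under the detection level. Counted from that level its value was at least 2.01-fold higher. Of 10 detected genes of triglyceride and phosphatidate synthesis 5 were above 0 and 5 below, with a median of -0.02 and a range from -0.29 to 0.68, and Lpin3, a phosphatidate phosphatase, was at 6.40 against 5.72. Genes of citrate and NADPH supply had a median of 0.11, which fell to 0.03 with centring, and the largest differences were those of Idh1 (9.75 against 9.32) and Cs (10.88 against 10.50).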
